A study of Rattus norvegicus with 12 samples.

Results

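The striatum of rats that received L-DOPA after a dopamine lesion (DOPA) was compared with the striatum of lesioned rats that received nothing further (6-OHDA). The comparison rests on 6 of the 12 arrays of the series, 3 per group, chosen by their treatment labels and not by any measured value. RNA of 1 male rat was hybridised to each array, a single-colour Agilent array of 43379 spots besides controls, and the age of the rats is not given in the labels. Every rat, controls included, had 9 µg of 6-hydroxydopamine, a toxin of catecholamine neurons, injected into the left substantia nigra, and no unlesioned animal was on these arrays. The DOPA rats then had 2 injections a day for 19 days, 12 h apart, of 25 mg/kg L-DOPA with 12.5 mg/kg benserazide, a regimen that brought on dyskinesia, and the untreated rats had none. None of the 6 was stimulated. The tissue was punched from the dorsal striatum, so each value is a mean over all cells in the punch, in which fewer cells of a type and less RNA per cell cannot be told apart.

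Dopamine reaches the striatum from the midbrain and acts on 2 populations of GABAergic projection neurons. Neurons of the direct pathway carry the D1 receptor and make dynorphin and substance P, and those of the indirect pathway carry the D2 receptor and make enkephalin. L-DOPA is the precursor of dopamine, and benserazide keeps it from being converted outside the brain. After denervation, the D1 receptor of the direct pathway is known to respond to dopamine in excess, with activation of cAMP signalling and of immediate early genes, and dynorphin is a classical marker of that response.

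The study set its arrays 4 to a slide, and each of the 3 slides held 1 DOPA and 1 6-OHDA array with the same sample number. Values are log2 signals after quantile normalization among the 6 arrays, and the 3 values of a group are given in the order of the slides. The share of spots well above background was 50.5% to 58.9%. Every DOPA array had one place on its slide and every 6-OHDA array another, so place and treatment cannot be told apart. A total of 19158 genes were tested with limma, with the slide as a block, and 4 of them (0.0209%) passed a Benjamini-Hochberg adjusted p under 0.1 together with a fold over 1.2 or under 0.8. At an unadjusted p under 0.05 there were 327 genes with a higher mean in DOPA (1.71%) and 373 with a lower one (1.95%), which makes 3.65% of all tests, where 5% would pass if nothing differed. A second description counts the genes whose 3 DOPA values all lay above, or all below, the 3 6-OHDA values and whose fold was past the same limits. By that rule 410 genes (2.14%) were higher and 323 (1.69%) were lower, and the others overlapped or stayed within the limits. An exact two-sided permutation test over 3 and 3 arrays cannot give less than p = 0.1, which every gene without overlap has, so that these counts are read against the shares of all genes and not as calls.

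**Figure D1:**
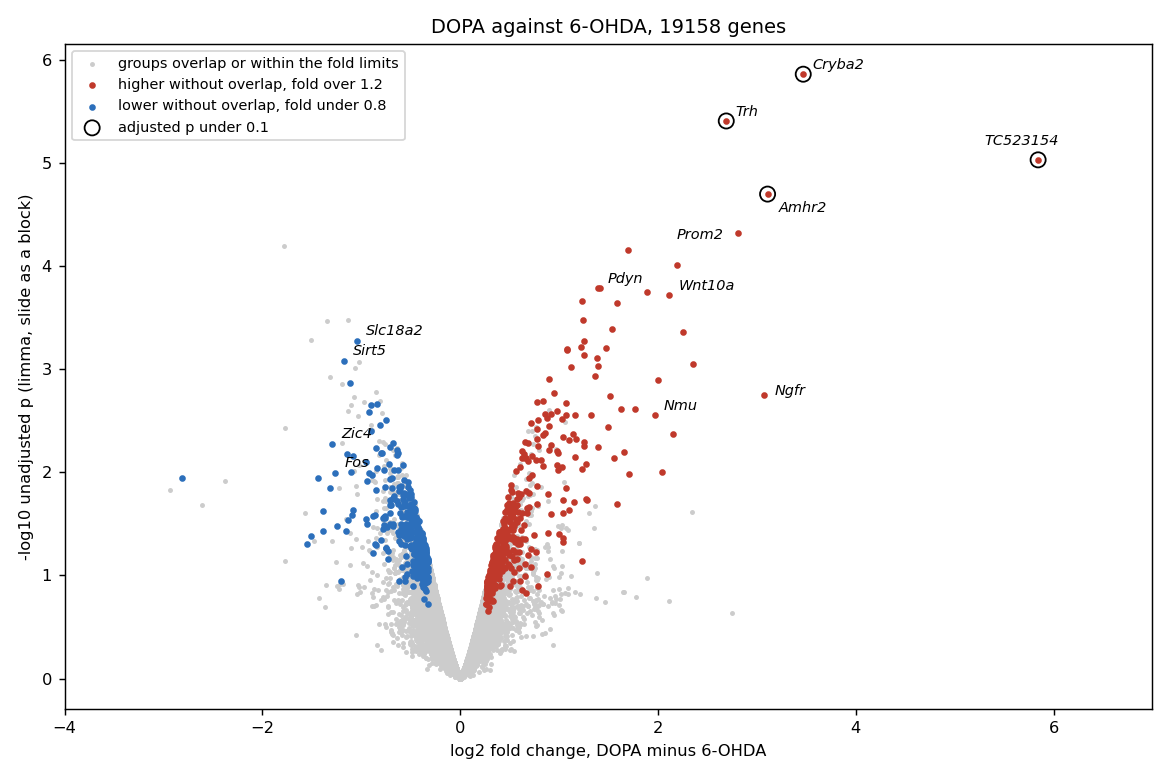
Each point is 1 of 19158 genes, with the log2 fold change of DOPA over 6-OHDA on the x axis and -log10 of the unadjusted limma p on the y axis. Red and blue points are the 410 and 323 genes whose groups did not overlap past the fold limits, and the 4 circled genes, all to the right, passed the adjusted threshold.

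The 4 genes that passed were all higher in DOPA. They were Trh, the precursor of thyrotropin-releasing hormone, a peptide of the hypothalamus that is also made in the basal ganglia, Cryba2, a crystallin first known from the lens, Amhr2, the type 2 receptor of anti-Müllerian hormone, and the probe TC523154, which the array names by a consensus transcript and not by a gene. Only Trh was well above background on all 6 arrays.

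Trh signals were 10.64, 10.63 and 10.48 in DOPA and 7.86, 7.92 and 7.90 in 6-OHDA. The groups were tight and far apart. Trh rose by 2.69 (SE 0.15), which is 6.45-fold, with an adjusted limma p of 0.0376, and the difference within each slide was 2.78, 2.70 and 2.58. Cryba2 signals were 6.77, 6.76 and 6.80 in DOPA, where all 3 arrays were well above background, and 3.18, 3.51 and 3.24 in 6-OHDA, where none was. Such a gene has only a bound in the dim group, taken per array as the lowest signal that the scanner software marked as well above background. On that basis Cryba2 was at least 3.81-fold higher in DOPA. Its adjusted limma p of 0.0264 came from the fit to the signals as measured, the dim ones included. The bound itself was not tested.

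Amhr2, which carries the signal of a hormone of the TGF beta family, had 6.23, 6.09 and 6.08 in DOPA and 3.72, 2.69 and 2.66 in 6-OHDA. It too was detected in DOPA alone, so that both genes passed the filter on dim probes through the treated arrays. Amhr2 was at least 2.43-fold higher, and its adjusted limma p of 0.0961 likewise came from the fit with the dim signals and not from the bound. TC523154 had 10.14, 9.91 and 10.02 in DOPA against 5.26, 3.04 and 4.25 in 6-OHDA, of which 1 array of 3 was well above background. Its fitted difference was 5.84 (SE 0.38) with an adjusted limma p of 0.0597, and the array describes the transcript only by a partial likeness to a U2 small nuclear RNA gene. The untreated rats varied most here and the treated rats little. None of the 4 calls held in the paired fit without the arrays of slide 3, where the lowest adjusted limma p of any gene was 0.705, without the filter on dim probes (0.782), or with all 12 arrays of the series fitted together (0.107). In fits without the slide, Cryba2 and Trh passed when any 1 of the 6 arrays was left out. After another background correction, which raises dim signals, Trh and TC523154 passed and the differences of Cryba2 and Amhr2 shrank to 0.87 and 0.78 (limma, adjusted p = 0.261 and 0.421).

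**Figure D2:**
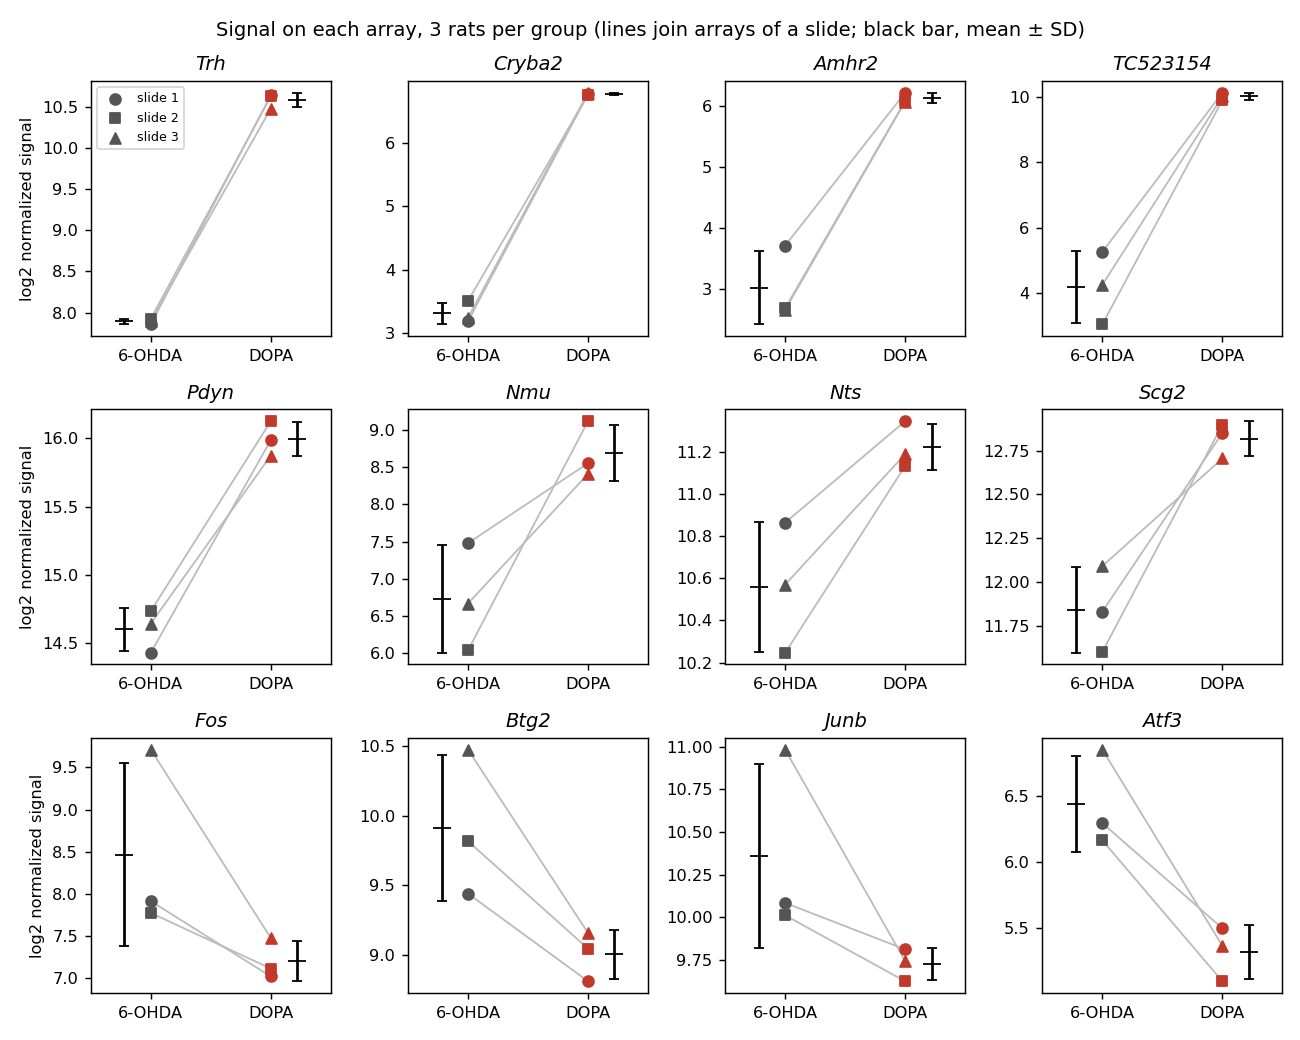
Log2 normalized signal (y axis of each panel, scaled to its own gene) of 12 genes on the 3 6-OHDA and the 3 DOPA arrays, with lines joining the arrays of a slide and the mean ± SD in black. Trh, Cryba2, Amhr2 and TC523154 passed the adjusted threshold, the peptide genes of the middle row lay higher in DOPA on every slide, and the immediate early genes of the last row lay lower, with 6-OHDA rat 3 highest in each.

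Trh belongs to the neuropeptide genes. Of 28 listed, 25 were tested, and 4 were higher without overlap (Trh, Nmu, Pdyn and Nts), which is 16% against 2.14% of all genes, while 1 was lower (Gnrh1). The median over the 25 was -0.02, against -0.01 for all genes tested, so that the list as a whole did not lie higher. Within slides its median was -0.02, 0.00 and 0.38.

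Pdyn encodes prodynorphin, from which the opioid peptides of the direct pathway are cut. Its signals were 15.99, 16.13 and 15.87 in DOPA and 14.43, 14.73 and 14.64 in 6-OHDA. The difference of 1.40 (SE 0.15), or 2.63-fold, was nearly even over the slides at 1.56, 1.39 and 1.23, but missed the threshold (limma, adjusted p = 0.304). Nmu, for neuromedin U, a peptide that acts on smooth muscle and on feeding, had 8.55, 9.12 and 8.41 in DOPA and 7.48, 6.03 and 6.67 in 6-OHDA. Its difference was 1.97 (SE 0.38), with an adjusted limma p of 0.811, and most of its spread came from the untreated rats. Nts, for neurotensin, a peptide known to oppose dopamine signalling, had 11.34, 11.13 and 11.19 against 10.86, 10.25 and 10.57, a difference of 0.66 (SE 0.16). Its DOPA values lay in a narrow band just above the highest untreated rat.

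Gnrh1, for gonadotropin-releasing hormone, was the peptide gene that lay lower, at 4.76, 5.12 and 4.10 in DOPA and 6.51, 5.12 and 5.64 in 6-OHDA. On slide 2 the values differed by less than 0.01, and only 1 of the 3 DOPA arrays was well above background. The other peptides of the projection neurons did not separate the groups. Penk, the enkephalin precursor, had 16.83, 16.40 and 16.62 in DOPA and 16.72, 16.05 and 16.77 in 6-OHDA, so that the groups overlapped. Tac1, from which substance P is made, had a log2 difference of 0.15 (SE 0.17). Neither Npy (0.00, SE 0.18) nor Sst (0.08, SE 0.30), peptides of striatal interneurons, separated the groups.

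The peptide precursors are packed and cut in dense-core granules. Of 13 granin and processing genes tested, Scg2 alone was higher without overlap (7.69%, against 2.14% of all genes) and none was lower. Scg2, for secretogranin II, had 12.85, 12.90 and 12.71 in DOPA and 11.83, 11.60 and 12.09 in 6-OHDA, a difference of 0.98 (SE 0.19, limma, adjusted p = 0.811). The prohormone convertase Pcsk2 had a difference of 0.62 (SE 0.24) with overlapping groups. Chga, Chgb, Scg3 and Vgf, also granins or granin-like, lay between -0.34 and 0.22.

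The sequences just before the start of peptide genes and immediate early genes hold sites for CREB and for the Fos and Jun proteins in many well studied cases, and the promoters of 6 genes are therefore shown. They were chosen, after a search, among the 14 called genes, peptide genes and immediate early genes that separated the groups, 9 of which have an entry in the RefSeq promoter table (assembly GRCr8), and 7 of those 9 held a motif. Amhr2 is not shown. Each is the 250 bases before the start in the sense of the gene, 5′ to 3′. Capitals mark TGACNTCA, the cAMP response element with any base in the middle, and TGANTCA, the AP-1 site, searched on both strands. A CRE and an AP-1 match do not overlap in these windows.
Trh (chr4:126301763-126302012, minus strand): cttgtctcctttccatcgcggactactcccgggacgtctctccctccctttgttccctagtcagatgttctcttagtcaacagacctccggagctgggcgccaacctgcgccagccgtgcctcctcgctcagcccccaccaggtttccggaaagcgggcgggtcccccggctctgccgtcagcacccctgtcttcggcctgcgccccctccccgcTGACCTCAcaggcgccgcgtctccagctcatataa
Nts (chr7:39460889-39461138, minus strand): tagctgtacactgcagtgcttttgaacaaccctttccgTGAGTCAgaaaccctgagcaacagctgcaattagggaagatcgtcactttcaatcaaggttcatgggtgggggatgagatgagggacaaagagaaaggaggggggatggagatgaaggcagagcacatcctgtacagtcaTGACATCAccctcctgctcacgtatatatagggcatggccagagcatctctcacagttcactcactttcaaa
Nmu (chr14:32198693-32198942, plus strand): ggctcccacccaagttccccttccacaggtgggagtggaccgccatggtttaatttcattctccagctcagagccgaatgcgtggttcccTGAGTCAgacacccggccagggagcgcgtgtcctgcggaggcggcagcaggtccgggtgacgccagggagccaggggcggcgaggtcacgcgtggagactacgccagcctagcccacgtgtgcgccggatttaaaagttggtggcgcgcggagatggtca
Scg2 (chr9:88256867-88257116, minus strand): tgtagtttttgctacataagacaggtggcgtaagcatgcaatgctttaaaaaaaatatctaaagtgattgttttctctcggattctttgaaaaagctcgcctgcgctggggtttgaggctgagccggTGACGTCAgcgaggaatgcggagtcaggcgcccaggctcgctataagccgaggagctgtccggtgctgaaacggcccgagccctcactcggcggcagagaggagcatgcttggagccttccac
Cryba2 (chr9:83899132-83899381, minus strand): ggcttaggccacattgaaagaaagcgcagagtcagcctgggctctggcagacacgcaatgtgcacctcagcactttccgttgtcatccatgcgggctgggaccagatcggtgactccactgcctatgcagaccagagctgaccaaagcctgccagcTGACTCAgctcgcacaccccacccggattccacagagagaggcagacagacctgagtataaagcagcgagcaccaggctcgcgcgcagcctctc
Btg2 (chr13:48087691-48087940, minus strand): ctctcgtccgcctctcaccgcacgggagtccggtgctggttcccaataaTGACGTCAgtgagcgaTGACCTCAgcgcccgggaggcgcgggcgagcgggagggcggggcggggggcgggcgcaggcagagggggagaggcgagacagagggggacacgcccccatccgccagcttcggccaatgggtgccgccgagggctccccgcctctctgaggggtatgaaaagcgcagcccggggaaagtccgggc
Trh held TGACCTCA beginning 35 bases before the start, Scg2 held the full element TGACGTCA at 123 bases, and Btg2, which lay lower in DOPA, held TGACGTCA and TGACCTCA at 201 and 185 bases. Nts held a match of each kind, at 72 and 212 bases, Nmu and Cryba2 an AP-1 match each, at 160 and 94 bases, and Pdyn and Junb held neither. The CRE-like letters occurred in 8.88% of all 33469 promoters of this length, in 6.09% of the 8165 belonging to genes tested, in 7.37% of 217 of the genes higher without overlap and in 5.17% of 116 of the lower ones. For the AP-1 letters the shares were 6.34%, 4.34%, 8.29% and 7.76%. A match describes the letters of the window and not the binding of a factor.

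Peptides act through G protein-coupled receptors. Of 23 such genes tested, 5 were higher (Hcrtr1, Mas1, Crhr1, Sstr2 and Npy5r), or 21.7% against 2.14% of all genes. Agtr1a alone was lower (4.35% against 1.69%), and the median was 0.07. Crhr1, a receptor of corticotropin-releasing hormone, had 9.76, 10.10 and 9.98 in DOPA and 8.73, 8.56 and 8.91 in 6-OHDA, a difference of 1.22 (SE 0.17) with all treated rats well above the untreated ones. Hcrtr1, an orexin receptor, had 5.99, 6.61 and 7.07 against 5.39, 3.08 and 5.08, with 1 of the 3 untreated arrays well above background. Mas1, a receptor of angiotensin 1-7, and Sstr2, of somatostatin, had differences of 1.27 (SE 0.38) and 1.07 (SE 0.30), and Agtr1a, of angiotensin II, of -0.40 (SE 0.15). Hcrtr1, Mas1 and Sstr2 differed least on slide 1, and the list's median was -0.06, 0.06 and 0.29 on slides 1 to 3. Oprk1, which binds dynorphin, had a difference of 0.07. Trhr, the receptor of thyrotropin-releasing hormone, did not pass the filter on dim probes.

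None of the 3 dopamine receptor genes tested separated the groups. Drd1, the receptor of the direct pathway, had 10.31, 10.85 and 10.31 in DOPA and 10.14, 10.55 and 10.54 in 6-OHDA, and Drd2, of the indirect pathway, had 11.56, 11.42 and 11.47 against 11.39, 10.72 and 11.87. Both overlapped throughout. Of 12 genes of dopamine synthesis, storage and breakdown that were tested, 3 were higher without overlap (Th, Aldh1a1 and Maoa) and 1 was lower (Slc18a2). That is 25% and 8.33%, against 2.14% and 1.69% of all genes.

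Slc18a2, the vesicular monoamine transporter, had 4.86, 5.37 and 5.59 in DOPA and 5.95, 6.36 and 6.63 in 6-OHDA. The difference was -1.10, -0.98 and -1.04 on the slides, or -1.04 in the paired fit (SE 0.14, limma, adjusted p = 0.469), and 2 of the DOPA arrays were well above background. Th, the rate-limiting enzyme of dopamine synthesis, went the other way, at 5.84, 5.47 and 5.93 against 5.15, 4.26 and 5.18, and just 1 of the 3 untreated arrays was well above background. The downstream signalling list of 19 genes tested, with Ppp1r1b (DARPP-32), Gnal and Adcy5, held no gene apart in either direction and had a median of 0.01.

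Immediate early genes switch on within minutes of activity and fade within hours, and the tissue was taken 12 h after the last injection. Of 31 tested, 4 were lower without overlap in DOPA (Fos, Atf3, Btg2 and Junb), which is 12.9% against 1.69% of all genes, and 1 was higher (Nr4a3). At an unadjusted p under 0.05 the list had 6 lower and 1 higher, and its median was -0.14. Fos, the partner of Jun proteins in AP-1, had 7.02, 7.12 and 7.48 in DOPA and 7.92, 7.78 and 9.71 in 6-OHDA, a difference of -1.26 (SE 0.33, limma, adjusted p = 0.9996). Atf3, a stress-induced factor of the same family, had 5.50, 5.10 and 5.36 against 6.29, 6.16 and 6.85, a difference of -1.12 (SE 0.19). In both genes 6-OHDA rat 3 had the highest value.

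Btg2, an antiproliferative gene, had 8.81, 9.04 and 9.16 in DOPA and 9.44, 9.82 and 10.48 in 6-OHDA, and the difference of -0.91 (SE 0.19) ran from -0.63 on slide 1 to -1.32 on slide 3. Junb had 9.81, 9.63 and 9.74 against 10.08, 10.01 and 10.98. In each of the 4 genes the same animal, 6-OHDA rat 3, was highest, and the list's median difference was -0.17, -0.05 and -0.31 on slides 1 to 3. Without this rat, 3 of the 31 genes were lower without overlap, or 9.68%, against 5.51% of all genes, Junb no longer being past the fold limit, and the median was -0.03. Fos, Atf3 and Btg2 were apart without it. Without DOPA rat 3 the count was 8 of 31, or 25.8%, against 2.76% of all genes, and without both arrays of slide 3 it was 9 of 31, or 29%, against 7.29%. Without 6-OHDA rat 2 it was 7 of 31, or 22.6%, against 4.13%. Ier2 (-0.78) and Egr2 (-0.47) were lower with an unadjusted p under 0.05 and overlapped between groups. Nr4a3, a nuclear receptor, had 8.43, 8.51 and 8.74 in DOPA and 8.32, 7.96 and 7.81 in 6-OHDA, a difference of 0.53 (SE 0.20). Fosb, the gene most often tied to long L-DOPA treatment, had a difference of 0.12 (SE 0.21), and Egr1 and Arc had -0.15 (SE 0.15) and -0.32 (SE 0.31).

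**Figure D3:**
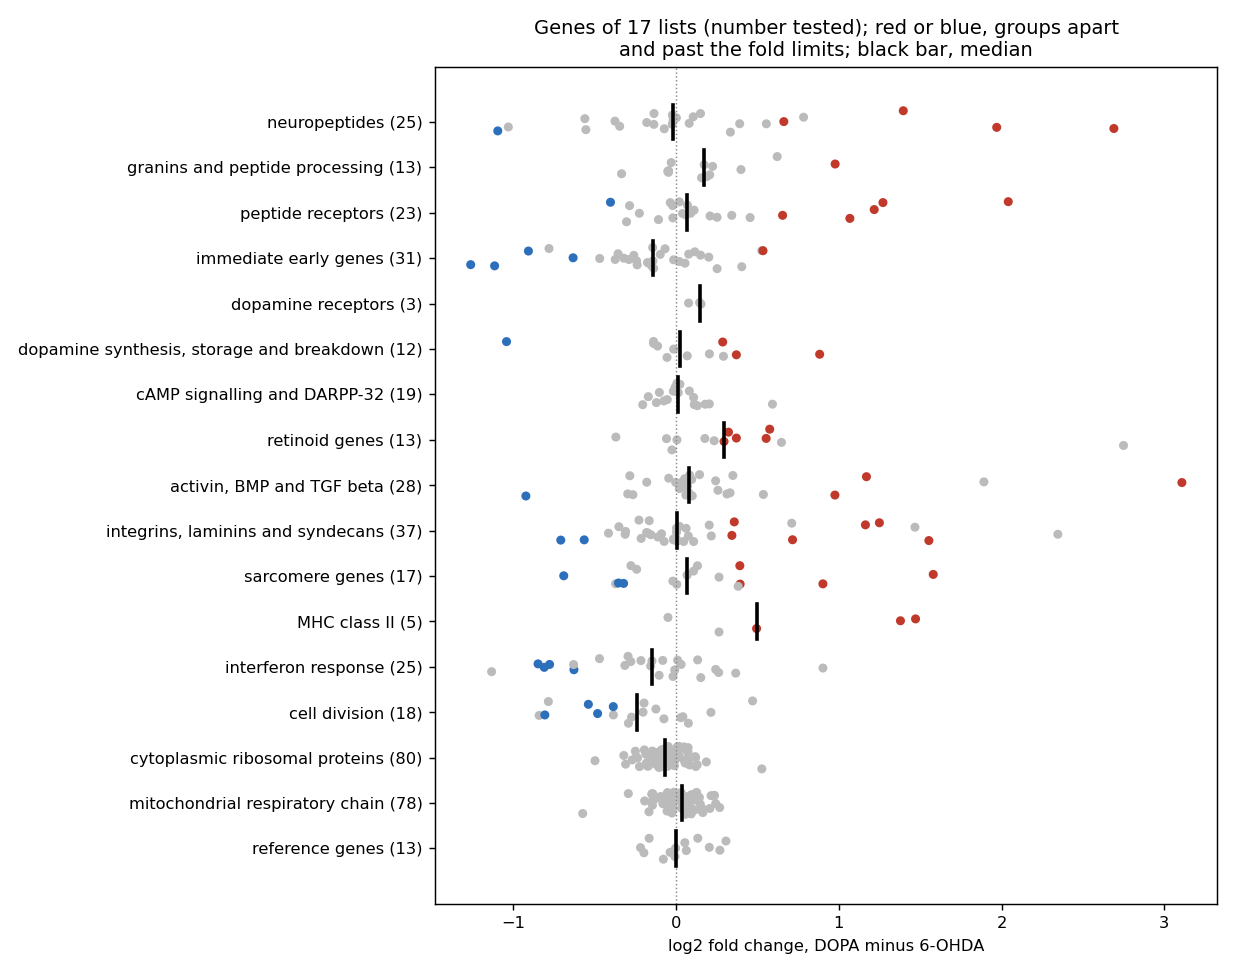
Log2 fold changes, DOPA minus 6-OHDA, of the genes tested in 17 of the lists (x axis), with 1 point per gene, the number tested in brackets and a black bar at the median. Red and blue points did not overlap between groups past the fold limits: 4 and 1 of 25 neuropeptide genes, 1 and 4 of 31 immediate early genes, and none of 80 ribosomal protein or 78 respiratory chain genes.

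Beyond the lists, the named genes with the largest differences were taken by rank among those with a symbol, an unadjusted p under 0.05 and no overlap. They also had to be past the fold limits and well above background on all 3 arrays of the brighter group. The 10 largest rises by this rule were Cryba2, Amhr2, Ngfr, Prom2, Trh, Ambp, Tnfsf9, Wnt10a, Hcrtr1 and Plek2, and 4 of these, namely Cryba2, Amhr2, Prom2 and Ambp, were not well above background on any untreated array. Ngfr, the p75 receptor of neurotrophins, had 8.53, 9.67 and 7.22 in DOPA and 5.64, 5.01 and 5.56 in 6-OHDA. It varied over more than 2 units among the treated rats, and its difference of 3.07 (SE 0.55) had an adjusted limma p of 0.795. Wnt10a, a secreted Wnt ligand, was well above background on every array, at 10.01, 10.59 and 10.06 against 8.50, 8.00 and 7.81. Its difference was 2.12 (SE 0.24), or 4.33-fold, and its adjusted limma p was 0.304. Prom2, a membrane protein of epithelial protrusions, was at least 2.17-fold higher, and Ambp, a secreted plasma protein precursor, at least 1.51-fold. Both entered the test through the treated arrays alone.

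The 10 largest falls by the same rule were Frem3, Exoc6b, Zic4, Fos, Sirt5, Ch25h, Selenop, Atf3, Gnrh1 and Pimreg, and none passed the adjusted threshold (lowest limma, adjusted p = 0.539). Sirt5, a mitochondrial deacylase, was the most even of them, at 10.59, 10.87 and 10.44 in DOPA and 11.57, 12.40 and 11.46 in 6-OHDA. It lay lower by -0.99, -1.54 and -1.02 within the slides, while the other 6 sirtuins did not separate the groups. Zic4, a zinc finger transcription factor, had 5.39, 5.08 and 6.15 against 6.78, 7.05 and 6.68. Frem3, Exoc6b and Pimreg had most of their difference on slide 2, as the plot of differences within slides shows.

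**Figure D4:**
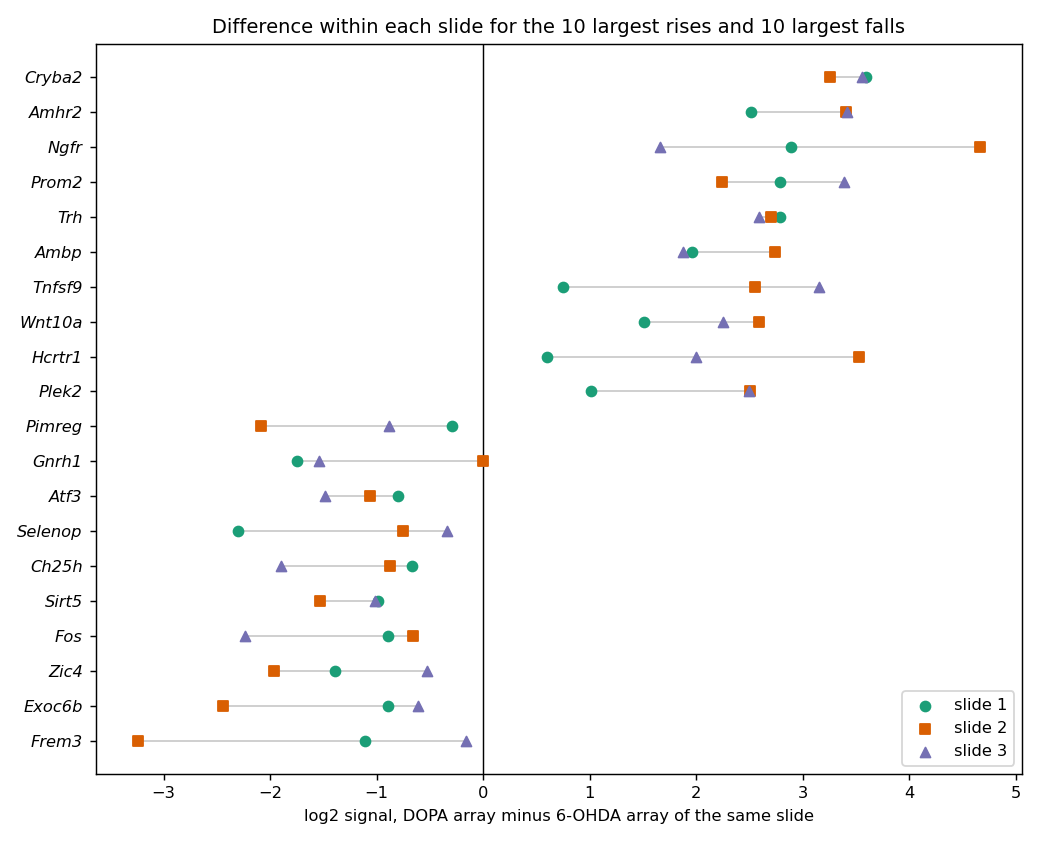
Difference in log2 signal between the DOPA and the 6-OHDA array of each slide (x axis) for the 10 largest rises and the 10 largest falls, with 1 symbol per slide. Trh and Cryba2 had nearly equal differences on the 3 slides, whereas Ngfr ran from 1.66 to 4.66 and Gnrh1 from -1.75 to 0.00.

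Other signalling genes separated the groups one by one. Kcnk13, a two-pore potassium channel, had 12.59, 12.45 and 12.45 in DOPA and 11.52, 11.35 and 10.87 in 6-OHDA, a difference of 1.25 (SE 0.17, limma, adjusted p = 0.469). With Kcnab3 and Kcnj14 it made 3 of 61 potassium channel genes tested that were higher, or 4.92% against 2.14% of all genes. Cnr1, the cannabinoid receptor of the brain, had 11.95, 12.14 and 12.03 against 11.59, 11.40 and 10.45. Prkcd, protein kinase C delta, had 12.68, 12.59 and 12.85 against 12.26, 11.36 and 12.04. In both the treated rats were alike and the untreated rats spread.

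Of 14 serotonin and adrenergic receptor genes tested, Htr1b lay higher by 1.04 (SE 0.34) and Htr2c lower by -0.46 (SE 0.15). Each made 7.14% of the list, against 2.14% higher and 1.69% lower among all genes. Phosphodiesterase genes had 3 of 13 higher (23.1%, against 2.14% of all genes) and none lower. The 3 were Pde1a, Pde1c and Pde7b, whose differences ran from 0.44 to 0.72 and of which none had an unadjusted p under 0.05. Among 15 genes of neurotrophins and their receptors, Ngfr was higher and Ret, a GDNF receptor subunit, lower by -0.56 (SE 0.22). Each made 6.67% of that list, against the same shares of all genes. No gene of the lists for NMDA, AMPA and kainate receptors (15 tested), cholinergic genes (11), MAP kinases and their phosphatases (23), adenosine genes (9) or the circadian clock (14) separated the groups past the limits.

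Retinoic acid acts through nuclear receptors, some of which are abundant in the striatum. Of 13 retinoid genes tested, 5 were higher without overlap (Crabp2, Dhrs3, Aldh1a1, Rbp4 and Rxrg), or 38.5% against 2.14% of all genes. None was lower, and the median was 0.29. All 5 differences were small, between 0.29 and 0.58, and 2 of them, of Crabp2 and Dhrs3, had an unadjusted p under 0.05. The transport protein Ttr, also on this list, was at 2.60, 10.16 and 13.70 in DOPA and 6.09, 6.46 and 5.66 in 6-OHDA. It is a marker of the choroid plexus, which is described with the cell types further on. On slide 1, where Ttr was lowest, the retinoid median was 0.09, against 0.41 and 0.34 on the others, and without both arrays of slide 3 the fitted median was 0.10. The 5 genes named above were higher by 0.15 to 0.54 on slide 1. Without both arrays of slide 3 the count stayed at 5 of 13, or 38.5%, against 8.07% of all genes.

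Among 28 genes of the activin, BMP and TGF beta family, Amhr2, Inhba and Grem1 were higher and Nog was lower. That is 10.7% and 3.57%, against 2.14% and 1.69% of all genes. Amhr2 passed the filter on dim probes through the treated arrays alone, so it could enter this count only as a higher gene. Inhba, the activin A subunit, had 9.65, 9.22 and 9.07 in DOPA and 8.32, 7.54 and 8.58 in 6-OHDA, a difference of 1.17 (SE 0.26). Nog (noggin) and Grem1 (gremlin) are both antagonists of BMP and differed in opposite directions, by -0.92 (SE 0.18) and 0.98 (SE 0.24). Matrix and adhesion genes had 6 of 37 higher, namely Lgals3, Efemp2, Sdc1, Itga7, Lamb1 and Itga6, and 2 lower, Nid1 and Itgb6, around a median of 0.00. The shares were 16.2% and 5.41%, against 2.14% and 1.69% of all genes. Efemp2, a fibulin of elastic fibres, had 11.29, 11.33 and 11.38 against 10.14, 10.35 and 9.76.

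Sarcomere genes, which serve muscle, gave 4 of 17 higher (Tnnt1, Tnni3, Acta1 and Tpm1) and 3 lower (Tnnc2, Myh6 and Myh7). That is 23.5% and 17.6%, against 2.14% and 1.69% of all genes. Tnnt1, a troponin T, had 11.40, 10.78 and 11.00 in DOPA and 9.53, 9.58 and 9.33 in 6-OHDA, a difference of 1.58 (SE 0.19, limma, adjusted p = 0.314). Myh6 and Myh7 are near-identical copies whose probes may share signal. Among 18 cell division genes, 4 were lower without overlap, Bub1b, Mcm2 and Mcm3 among them, and none was higher. That is 22.2%, against 1.69% of all genes. The median was -0.24, and it was -0.02, -0.47 and -0.24 on slides 1 to 3.

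Lists of immune genes followed. Of 5 genes of MHC class II tested, which present antigen, 3 were higher without overlap, or 60% against 2.14% of all genes, and none lower. Cd74, the invariant chain, had 7.13, 7.53 and 7.68 in DOPA and 5.85, 5.69 and 6.68 in 6-OHDA, a difference of 1.38 (SE 0.21), and RT1-Da had 6.08, 5.84 and 6.59 against 5.11, 4.03 and 4.96, a difference of 1.47 (SE 0.21), with 1 of the untreated arrays well above background. RT1-Bb lay higher by 0.49 (SE 0.23), and RT1 genes resemble each other closely enough for a probe to catch more than 1. The adjusted limma p of Cd74 and RT1-Da was 0.538 and 0.478.

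Interferon response genes gave 4 of 25 lower (Irf7, Oas1i, Ifitm3 and Oas1a) and none higher, which is 16% against 1.69% of all genes, with a median of -0.15. Without DOPA rat 3 the count was 6 of 25, against 2.76% of all genes, and without 6-OHDA rat 3 it was 8 of 25, against 5.51%. Without 6-OHDA rat 2 it stayed at 4 of 25, or 16%, while the share of all genes was 4.13%. Without both arrays of slide 3 it was 9 of 25, against 7.29%. Irf7, a factor that drives the response, had 7.60, 6.97 and 7.95 in DOPA and 8.07, 8.46 and 8.53 in 6-OHDA, a difference of -0.85 (SE 0.24). Mx2, of the same response, had the opposite sign at 0.90 (SE 0.17) with overlapping groups. Of 16 chemokine and cytokine genes, Tnfsf9 and Cxcl12 were higher (12.5%, against 2.14% of all genes) and Csf1 was lower (6.25%, against 1.69%). C1s was the member higher of 14 complement genes (7.14%, against 2.14% of all genes). The Oas1 and Ifitm genes are families of close copies.

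Axon growth and guidance genes gave 2 of 36 higher, Unc5d and Cntn6, and 4 lower, Dcx, Plxnc1, Plxnd1 and Cntn2, around a median of -0.01. The shares were 5.56% and 11.1%, against 2.14% and 1.69% of all genes. Unc5d, a netrin receptor, was not well above background in 6-OHDA, so it entered the test through the treated arrays alone. Unc5d was at least 2.23-fold higher, and Dcx, which marks young neurons, lay lower by -0.60. Nefh, the heavy neurofilament, lay higher by 1.07 and was alone among 13 cytoskeletal genes (7.69%, against 2.14% of all genes). Of 25 genes of apoptosis, 3 were higher (12%, against 2.14% of all genes), namely Cflar (0.86), Gadd45a (0.47) and Bax (0.31), and none was lower. Of 31 antioxidant genes, Gss (0.65) and Mgst1 (0.31) were higher and Selenop, a carrier of selenium, was lower (-1.13). These made 6.45% and 3.23% of that list, against 2.14% and 1.69% of all genes. Bag3, Hspa13 and Hspa12b, between 0.28 and 0.52, were the 3 higher of 59 heat shock genes, or 5.08% against 2.14% of all genes. Single genes separated the groups among GABA genes (Gad1, 0.49), metabotropic glutamate receptors (Grm4, -0.43) and the insulin-like growth factor system (Igfbp5, -0.89). They made 5.88%, 14.3% and 9.09% of the genes tested in these lists, against 2.14% higher and 1.69% lower among all genes.

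Large lists of genes with general cell functions were also described, and whether their spread holds for dim genes was not tested. None of 80 cytoplasmic ribosomal protein genes and none of 78 respiratory chain genes separated the groups past the limits, and their medians were -0.07 and 0.04. The ribosomal median was 0.08 on slide 1 and -0.20 on slide 2. Smaller lists shifted more between slides, as the 23 MAP kinase genes did, with a median of 0.42 on slide 2 and -0.22 on slide 3. None of 13 reference genes was apart, and Hprt1 had a difference of 0.00 (SE 0.15).

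Marker lists of 13 cell types were used to see what the punches held. The 12 markers of striatal projection neurons were well above background on all 6 arrays, none separated the groups, and their summed log2 signal was between 18.33 and 18.42 in DOPA and between 18.26 and 18.43 in 6-OHDA. Of 7 markers of the direct pathway tested, Pdyn alone was apart, and Drd1, Tac1, Chrm4, Isl1, Ebf1 and Slc35d3 lay between -0.28 and 0.25. None of 14 microglial markers was apart, with Aif1 at -0.04 and Cd68 at 0.00. Their differences ran from -0.20 to 1.47 around a median of 0.04, and the largest was that of Itgam (limma, unadjusted p = 0.183). Of 11 astrocyte markers 1 was higher (Slc1a2, 0.27), and of 12 oligodendrocyte markers 1 was lower (Opalin, -0.33). That is 9.09% and 8.33%, against 2.14% and 1.69% of all genes. The MHC class II values above stand beside this microglial list, whose mean log2 signal overlapped between groups.

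DOPA rat 3 had the highest level in 2 lists. Of 11 choroid plexus markers on the array, it had 8 well above background, against 4 to 6 on the other 5 arrays, and a summed log2 signal of 14.22 against 11.74 and 12.31 in the other DOPA rats and 11.71 to 12.53 in 6-OHDA. Besides Ttr, its Sostdc1 was at 10.34 and its Kcnj13 at 7.68, the latter not well above background elsewhere, whereas Kl and Prlr were at background on every array. DOPA rat 2 had Ttr at 10.16, against 5.66 to 6.46 in 6-OHDA. The 7 cortical pyramidal markers were raised in 2 rats, 1 of each group. Their mean log2 signal was 8.79 in DOPA rat 3 and 8.32 in 6-OHDA rat 1, against 7.18 to 7.38 on the other arrays. Their median difference was -1.09, 0.20 and 1.73 on slides 1 to 3. Neither list separated the groups, and their part in the other differences was not tested. Without DOPA rat 3, the counts of higher genes were 4 of 25 neuropeptide, 6 of 23 peptide receptor, 5 of 13 retinoid and 3 of 5 MHC class II genes, against 3.8% of all genes. Another rat stood apart in the 7 ependymal markers on the array, which belong to ciliated cells of the ventricle wall. In 6-OHDA rat 2 their mean log2 signal was 7.92, against 6.31 to 7.39 on the other arrays, and their summed log2 signal was 13.12, against 11.06 to 12.11. The 6 of them that were tested had a median difference of 0.85, -1.84 and -0.45 on slides 1 to 3. Without 6-OHDA rat 2, and without the slide in the fit, the log2 differences of Frem3, Exoc6b and Pimreg were -1.21, -0.71 and -0.52, and the median of the cell division genes was -0.13. The count of lower cell division genes stayed at 4 of 18, or 22.2%, against 4.13% of all genes.

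**Figure D5:**
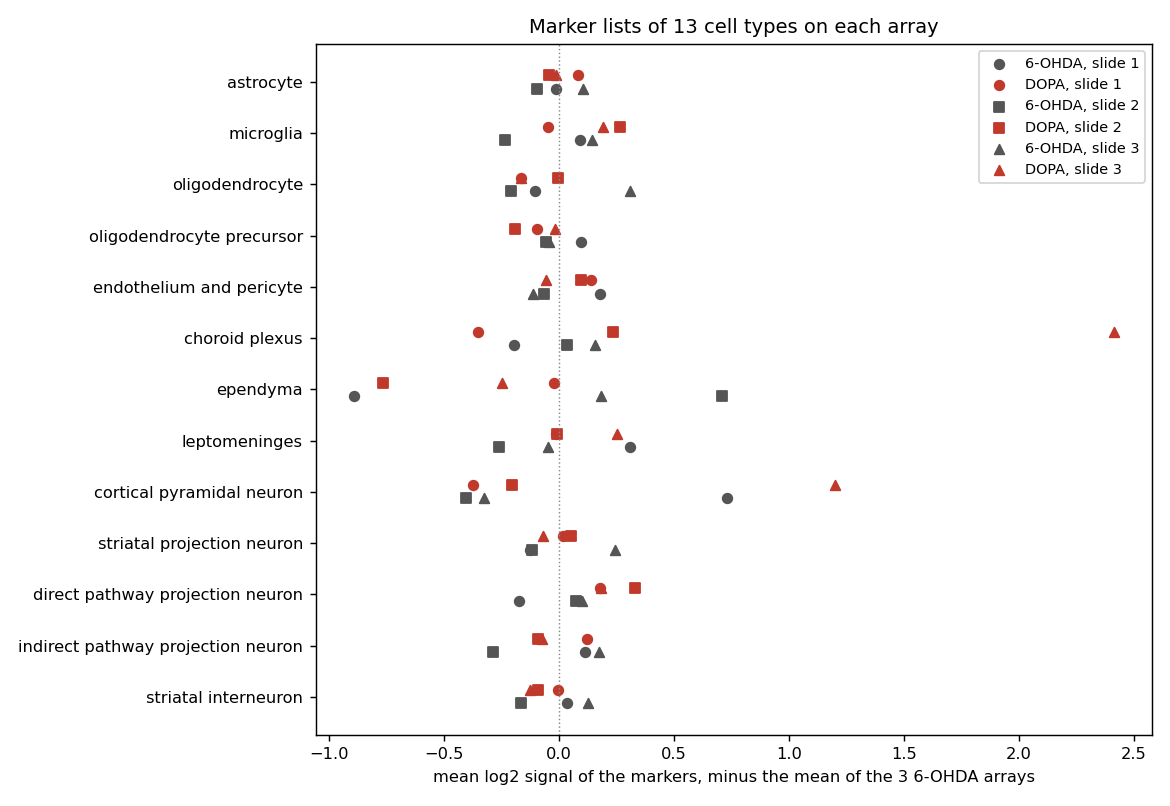
Mean log2 signal of the markers of 13 cell types on each of the 6 arrays, minus the mean of the 3 6-OHDA arrays (x axis), with grey for 6-OHDA, red for DOPA and 1 symbol per slide. The triangle of DOPA rat 3 lies far to the right for choroid plexus and cortical pyramidal neurons, and the grey square of 6-OHDA rat 2 lies to the right for ependyma. The grey circle of 6-OHDA rat 1 also lies to the right for cortical pyramidal neurons.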

How the data were processed

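RNA of dorsal striatum from 1 rat per array was labelled with Cy3 and scanned. Per the file headers, Agilent Feature Extraction 9.1 made the deposited intensity values (processed signals, already background-subtracted). The authors also deposited a table of log2 values, normalized among 12 arrays, which was used as an alternative. Here log2 processed signals of non-control spots, without outlier flags, were quantile normalized among the 6 arrays. Spots of a probe were averaged, and 41012 probes gave 35537 genes. Of the probes, 10735 were named through a RefSeq accession and 5506 by the symbol in the files. Another 3718, with those of Frem3, Exoc6b and Pimreg among them, were matched from an older symbol to the current one. The other 21053 kept the name in the files. Probes well above background on at least 3 of the 6 arrays were kept, and the brightest of them stood for its gene. The fit was limma 3.58.1 (R 4.3.3) with the slide, which the file headers tie to the sample number, as a block, and was tested on simulated data. Benjamini-Hochberg adjustment ran over all 19158 genes. Deviations of same-slide arrays from their group means correlated at -0.006, 0.414 and 0.223. The number of arrays limits the precision. The text names the called genes, the 10 largest rises and falls, list members without overlap, and defining members. The rises and falls had an unadjusted p under 0.05, no overlap, a fold past the limits and all 3 arrays of the brighter group well above background. The members and lists were chosen with earlier results of these data known. Results for 1 member of the lists were left out of the text.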

Additional observations from a re-analysis of the deposited data

How the results depend on the processing

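All 116 named genes kept their direction under every alternative in which they were tested. With no replicate block the same 4 genes were called as in the paired fit. In that fit with no block, 216 genes were higher and 192 lower at an unadjusted p under 0.05. The number of genes called was 6 after scaling to the 75th percentile, 5 with a filter per group, 3 with the mean of all probes or with outlier spots kept, 2 after normexp background correction, 2 in the deposited log2 table, 2 at an adjusted p under 0.05, 0 without the filter on dim probes and 0 with all 12 arrays. At an unadjusted p under 0.05 the latter 2 fits had 595 higher and 763 lower, and 277 higher and 288 lower genes. Without the filter, 733 genes were higher and 632 lower without overlap, and these counts were 280 and 162 after normexp and 303 and 203 in the deposited table. In the paired fit without replicate 1, 2 or 3, 0 to 5 genes were called and 368 to 399 were higher and 305 to 488 lower at an unadjusted p under 0.05, with 1253 to 1547 higher and 992 to 1397 lower without overlap, since 2 against 2 arrays overlap less often. Trh lost its call without replicate 1 and without replicate 3, and Amhr2 without replicate 2. In the fits with no replicate block that left out 1 array, 2 to 5 genes were called, 160 to 384 were higher and 142 to 422 lower at an unadjusted p under 0.05, and 637 to 1131 were higher and 528 to 1055 lower without overlap. The cause of these shifts was not tested. Counts of lists without the arrays of slide 3, 1 of them or 6-OHDA rat 2 were added after seeing the data. Signals not well above background give only bounds.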

Other observations

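Several genes outside the lists, chosen after their values were seen, separated the groups. Tpbg, a membrane glycoprotein that modulates Wnt signalling, had 12.17, 12.38 and 12.04 in DOPA and 10.96, 10.85 and 10.54 in 6-OHDA, a log2 difference of 1.41, and was among the brighter ones. Ctsk, a cysteine protease known from bone, and Gpr26, an orphan receptor of the brain, lay higher by 1.39 and 1.37. Hes3, a transcriptional repressor of the Notch family, was not well above background on any untreated array and was at least 2.05-fold higher in DOPA. None of these passed the adjusted threshold.

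The probe XM_345411, named by its accession, had 6.77, 6.44 and 6.21 in DOPA and 10.33, 6.85 and 10.68 in 6-OHDA. Its untreated rats fell into high and low values, with rat 2 near the treated rats, and it was called lower in the paired fit without slide 2.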
